A study of Mus musculus with 12 samples.

Results

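The genes described here carry long-chain fatty acids into the liver cell, hold them in the cytosol and activate them. They are 10 in number: Cd36, Slc27a2, Lpl and Vldlr for uptake, Fabp1, Fabp2, Fabp4 and Fabp5 for binding, and Acsl1 and Acsl5 for activation. Each was found through the Ensembl identifier of its row, and all 10 of 10 were present among the 12086 genes of the table. RNA sequencing measured them in whole livers of male wild type C57BL/6 mice killed fasted at postnatal day 84 (12 weeks). The groups are named by the dam's diet and then the offspring's diet. OO offspring of obesogenic-fed dams were weaned onto the obesogenic diet, and CO offspring of control-fed dams were weaned onto the same diet. OC offspring of obesogenic-fed dams were weaned onto chow, and CC offspring of control-fed dams were weaned onto chow. The control diet was RM1 chow, with 7% simple carbohydrate and 3% lipid by weight. The obesogenic diet held 10% simple carbohydrate and 20% lipid, and came with sweetened condensed milk (55% simple carbohydrate, 8% lipid and 8% protein, with the AIN93G mineral and vitamin mix). All pups came from litters set to 6 at postnatal day 3, and weaning was at day 21. There were 3 OO, 2 CO, 3 OC and 3 CC libraries, numbered from 0 within each group. The numbers pair nothing, and no source used here says which offspring shared a dam, so the tests measure the spread between these libraries.

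Fatty acids reach the hepatocyte bound to albumin or inside lipoprotein particles. Lipoprotein lipase releases them from particles, surface proteins such as CD36 take them up, and small fatty acid binding proteins carry them through the cytosol. Acyl-CoA synthetases then join them to coenzyme A, the step that commits them to oxidation or to storage as triglyceride. Several of these genes are known targets of PPAR alpha, a nuclear receptor for fatty acids that is abundant in the fasted liver. Adult liver makes mainly FABP1, and Fabp2 is best known from the intestine, Fabp4 from adipocytes and macrophages, and Fabp5 from skin and macrophages.

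Each deposited value was treated as a normalised read count, a count scaled by a factor of its library. It is not divided by transcript length, so levels are compared between libraries within a gene and not between genes. Library depth ran from 3976158 reads in OO.1 to 27837609 in OO.0, and 3 reads were worth between 0.1002 and 0.8295 in value. The thinnest of the 10 genes was Vldlr, with 7 to 80 reads a library, followed by Fabp5 with 17 to 555 and Fabp4 with 38 to 377, and the other 7 genes had at least 115 reads in every library. All 10 passed the filter on low values. Hepatocyte markers were abundant, with 7 of 8 measured and a summed value of 24510 to 40070 a library. Several libraries stood apart. The sum of the exocrine pancreas markers, 9 of 11 measured, was 5748 for OC.0, 3569 for CO.1, 858.4 for CC.1 and between 7.048 and 119.7 for the remaining 8. Saa1, an acute phase gene, reached 5045 for CO.1 and 3415 for OC.1 and lay between 14.39 and 388.9 for the remaining 9. Skeletal muscle markers, 7 of 8 measured, summed to 171.1 in OO.0, 97.01 in CC.0, 55.88 in CO.1, 42.88 in OC.0 and 28.77 in OC.2. The rest lay between 1.106 and 9.536. Since CO.1 is 1 of only 2 CO libraries, results that rest on it are given with and without it.

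**Figure D1:**
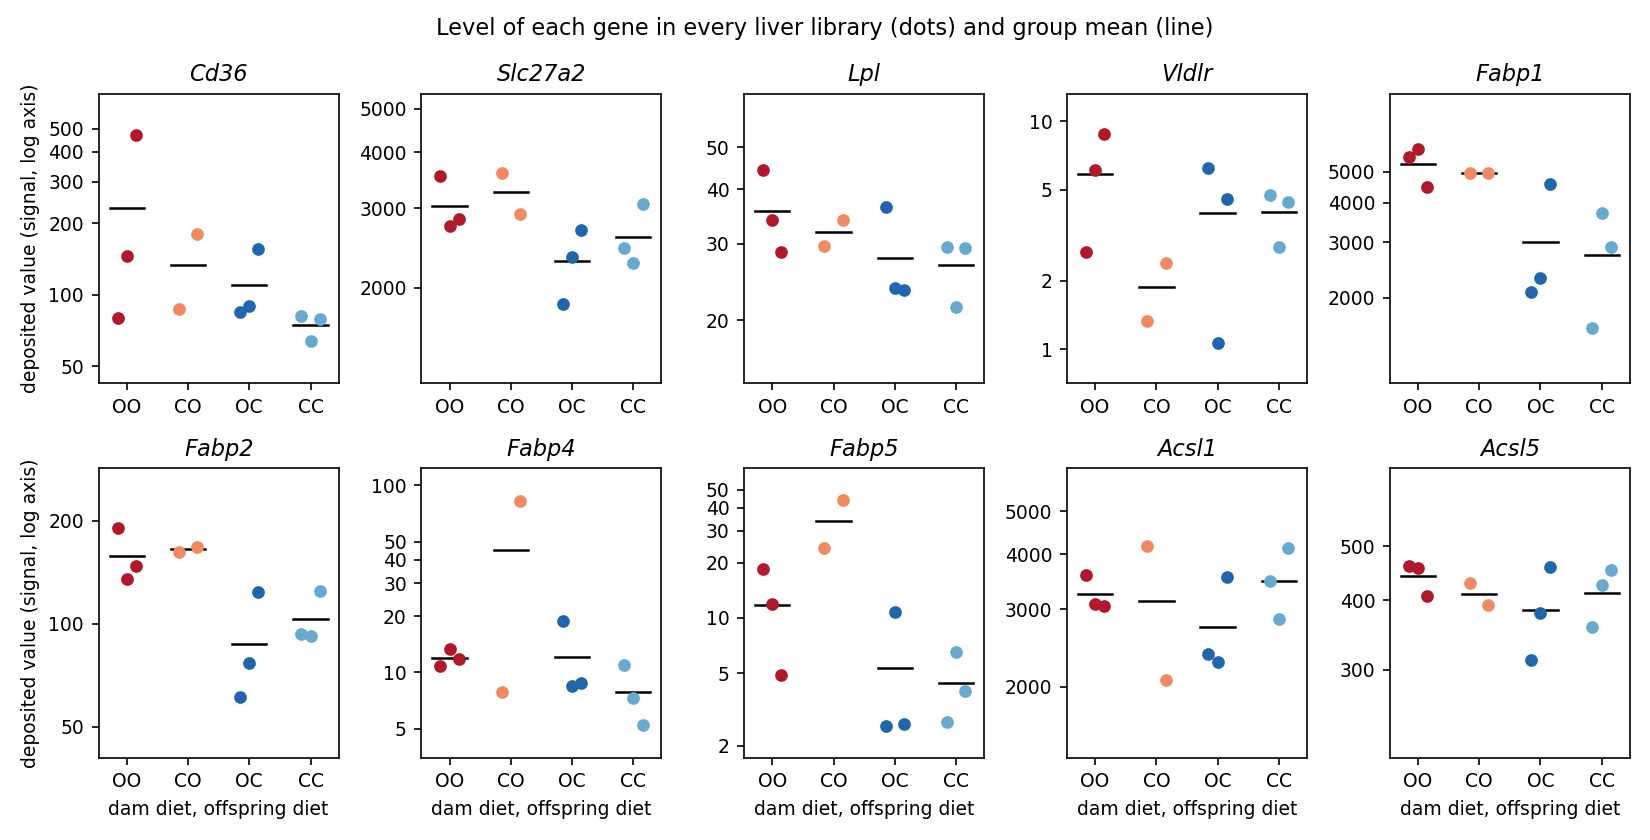
Normalised value of each of the 10 genes in every library (1 dot a library, log axis; the line is the group mean), with OO and CO offspring on the obesogenic diet and OC and CC offspring on chow. Fabp2 is the gene whose 5 obesogenic-fed libraries (134.7 to 189.6) all lie above the 6 chow-fed ones (60.97 to 124.8), and 1 CO library stands apart for Fabp4 at 82.3.

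The spread between libraries of the same group differed widely among the 10 genes. On the log2 scale the within-group SD was 0.187 for Acsl5, 0.232 for Slc27a2, 0.291 for Lpl, 0.336 for Fabp2, 0.366 for Acsl1 and 0.479 for Fabp1. It was 0.777 for Vldlr, 0.799 for Cd36, 0.847 for Fabp5 and 0.986 for Fabp4, beside a median of 0.224 over all 12086 genes. From the lowest to the highest library the value changed 1.48-fold for Acsl5, and 15.7-fold for Fabp4 and 17.0-fold for Fabp5.

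The offspring's own diet was compared first, as the mean of OO minus OC and CO minus CC. On the obesogenic diet the livers had more Fabp5 and Fabp2 mRNA, by 4.01-fold and 1.73-fold, and the other 8 genes did not pass the test. The test was limma on log2(value + 0.5) across all genes, with Benjamini-Hochberg adjusted p under 0.05. It called 2 of the 10 genes, both higher, where 3.96% of all genes were called. Within the offspring of obesogenic-fed dams, OO against OC, it called none of the 10, where 0.165% of all genes were called, with 2 of the 10 and 8.01% of all genes at an unadjusted p under 0.05, and edgeR, DESeq2 and limma voom called none there either. In the average over dams the differences of 9 of the 10 genes were above 0, beside 49.8% of all genes. Their median was 0.56 on the log2 scale, beside -0.00078 for all genes. In that average 4 of the 10 had an unadjusted p under 0.05, as did 19.4% of all genes. The 10 genes were chosen with earlier results of these data known, so these shares and medians are descriptions with no test. Fold changes in this text come from log2(value + 0.5) and understate changes of low genes.

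**Figure D2:**
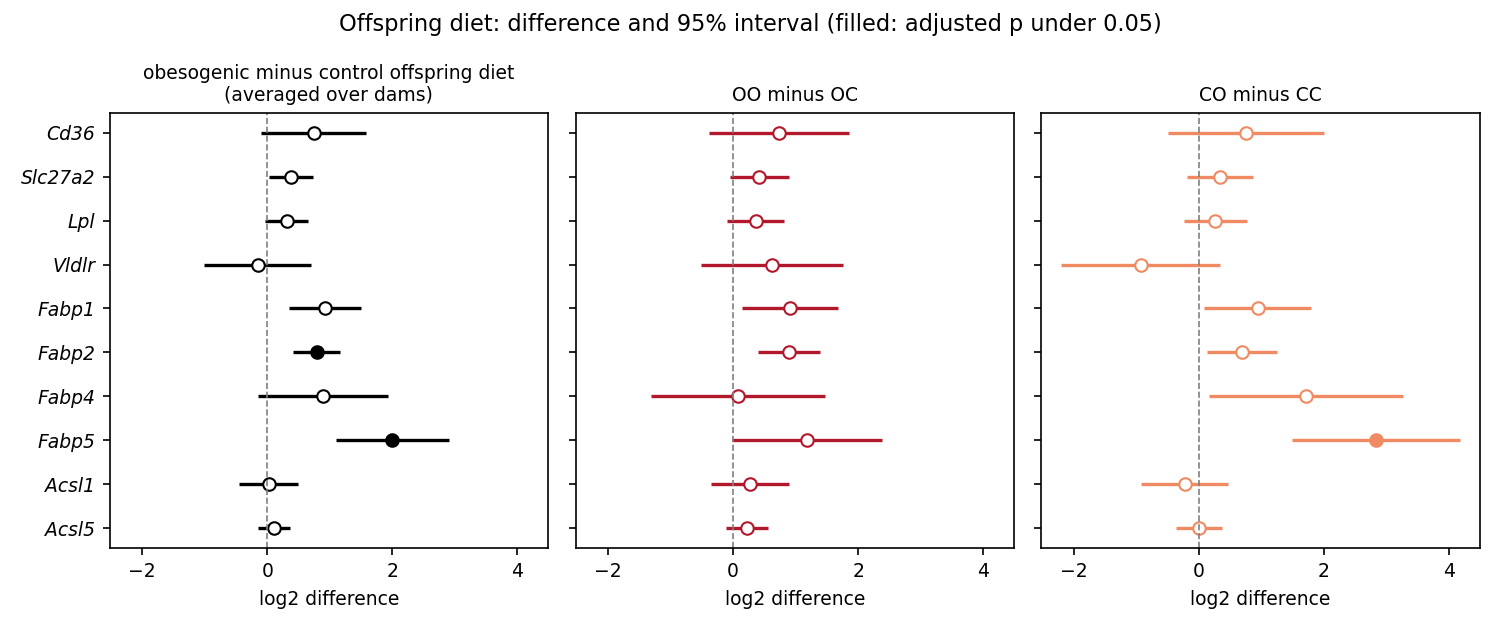
Log2 difference for the offspring's diet with its 95% interval from limma, averaged over dams (left), OO minus OC (middle) and CO minus CC (right), where a filled dot marks an adjusted p under 0.05. Fabp5 (2.003) and Fabp2 (0.79) are filled in the average and Fabp5 (2.83) in CO minus CC, and none is filled in OO minus OC.

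Among the uptake genes, Cd36 encodes a scavenger receptor that takes up long-chain fatty acids and is known to rise in the steatotic mouse liver. Its value was 79.55, 145.4 and 470.3 in OO and 87.51 and 179.9 in CO, against 84.47, 89.72 and 156.2 in OC and 81.16, 63.58 and 79.19 in CC. The groups overlapped, since OO.0, OO.1 and CO.0 lay within the chow-fed range, while OO.2 and CO.1 lay above every chow-fed library. OO averaged 231.8 ± 209.2, CO 133.7 ± 65.31, OC 110.1 ± 39.98 and CC 74.64 ± 9.632 (SD, n = 3, 2, 3 and 3). Averaged over dams the log2 difference was 0.74 with an SE of 0.38 and an adjusted p of 0.323 by limma, and it was 0.39 without OO.2 and 0.48 without CO.1. The difference was 0.73 for OO against OC and 0.75 for CO against CC, neither of which passed the test.

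Slc27a2 encodes FATP2, a fatty acid transporter that is also a very long-chain acyl-CoA synthetase and is abundant in liver. Its value was 3537, 2747 and 2845 in OO and 3602 and 2920 in CO, against 1837, 2336 and 2686 in OC and 2450, 2273 and 3060 in CC. All 5 obesogenic-fed libraries lay above the chow-fed median of 2393, but CC.2, at 3060, lay above 3 of them. The log2 difference averaged over dams was 0.38 with an SE of 0.16, a 95% interval of 0.02 to 0.73 and an adjusted p of 0.231 by limma, and it was 0.42 in OO against OC and 0.33 in CO against CC. A lincRNA gene, Gm26697, shares 421 bases with its transcripts at 100% identity and was not analysed here, so how reads of that stretch were counted is unknown.

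Lpl encodes lipoprotein lipase, which hydrolyses triglyceride in chylomicrons and VLDL and is low in adult hepatocytes. Its value was 44.32, 34.01 and 28.76 in OO and 29.67 and 34.05 in CO, against 36.42, 23.72 and 23.49 in OC and 29.48, 21.5 and 29.3 in CC. The ranges overlapped, with OC.0 above 4 of the 5 obesogenic-fed libraries. The average log2 difference was 0.31 (SE 0.15, adjusted p = 0.305 by limma), with 0.36 in OO against OC and 0.26 in CO against CC.

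Vldlr encodes the VLDL receptor, which binds triglyceride-rich particles and is sparse in healthy liver. Its value was 2.672, 6.083 and 8.824 in OO and 1.333 and 2.401 in CO, against 6.226, 1.064 and 4.551 in OC and 4.755, 2.805 and 4.422 in CC. The ranges of the obesogenic-fed and chow-fed libraries overlapped. The log2 difference averaged over dams was -0.15 with an SE of 0.39 (adjusted p = 0.881 by limma), and its sign turned without CO.0 (0.01), OC.0 (0.06) or OO.0 (0.06). It was 0.62 in OO against OC, where it was -0.01 without OC.1, and -0.93 in CO against CC, and neither passed the test. At 7 to 80 reads a library these values carry a large counting error.

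The binding proteins hold both genes that passed the test. Fabp5, also called epidermal or keratinocyte fatty acid binding protein, carries fatty acids and retinoic acid in skin, macrophages and endothelium. Its value was 18.54, 11.89 and 4.902 in OO and 24.17 and 43.88 in CO, against 2.585, 10.8 and 2.642 in OC and 2.695, 6.545 and 4.008 in CC. Both CO libraries were above all others, and 2 of the 3 OO libraries were above all chow-fed ones, while OO.2 lay below OC.1 and CC.1. OO averaged 11.78 ± 6.817 and CO 34.02 ± 13.94, against 5.341 ± 4.725 in OC and 4.416 ± 1.957 in CC (SD, n = 3, 2, 3 and 3). Averaged over dams Fabp5 rose by 2.003 on the log2 scale (SE 0.41, 95% interval 1.10 to 2.91, adjusted p = 0.0218 by limma).

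In CO against CC Fabp5 rose by 2.83 on the log2 scale, or 7.09-fold (SE 0.62, 95% interval 1.48 to 4.17, adjusted p = 0.0441 by limma). It was the single gene of the 10 called there, where 1.79% of all genes were called. In OO against OC the difference was 1.18 (SE 0.55, adjusted p = 0.631 by limma), which did not pass. The call of the average ended without CC.0 (1.87), CC.2 (1.99), CO.1 (1.79), OC.0 (1.84) or OC.2 (1.85), with adjusted p between 0.0513 and 0.0931. In CO against CC it ended without CC.0 (2.55), CC.2 (2.80), CO.0 (3.25) or CO.1 (2.40), without OC.0, OC.2 or OO.1 (each 2.83, with a changed estimate of spread), and under limma voom on recovered reads (2.96, adjusted p = 0.0564).

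CO.1 had the highest Fabp5 value and OC.1 the highest of the chow-fed libraries, and these 2 had the highest Saa1 values, whereas OC.0, with the highest pancreas marker sum, had the lowest Fabp5 value of all 11. Their part in the result was not tested. Without CO.1 and OC.1 the average difference was 2.10 with an adjusted p of 0.0265 by limma. Without OC.0 and CO.1, whose pancreas marker sums were highest, it was 1.63 with an adjusted p of 0.185. Of the 12 measured of 14 Kupffer cell and macrophage markers, 1 rose and 1 fell by limma on the average. Limma called 3.96% of all genes there. Mpeg1, a pore-forming protein of macrophages, had a log2 difference of 0.92 (adjusted p = 0.0102 by limma). Trem2, a lipid receptor of macrophages, had -1.15 (adjusted p = 0.036). Its values in CO.0, CO.1 and OO.1 were 0.667, 0.873 and 1.106. Each was close to the worth of 3 reads in its library, which was 0.655 in CO.1 and 0.8295 in OO.1. Trem2 stood at 1.57 in OO.0 and 3.595 in OO.2, and ran from 2.061 to 4.817 in the chow-fed libraries. Differences above 0 were found for 10 of 12 markers and 49.8% of all genes, and an unadjusted p under 0.05 for 3 of 12 and 19.4%. The Trem2 call ended, at -1.21 to -1.01, without CC.1, CC.2, CO.0, CO.1, OC.0, OC.2, OO.0 or OO.1. Summed macrophage markers stood at 659.7 to 672.7 in OO and 604.0 to 630.7 in CO, against 468.0 to 728.7 in OC and 415.5 to 557.8 in CC. In whole liver, more cells of a type and more RNA per cell cannot be told apart. Fabp5 also has 5 annotated processed pseudogenes that match its transcript over 336 to 409 bases at 93.6% to 98.3% identity, and no source used here says how reads were divided among these copies, so its level is uncertain.

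Fabp2 encodes the intestinal fatty acid binding protein, which is also transcribed in mouse liver. Its value was 189.6, 134.7 and 147.1 in OO and 161.4 and 167.9 in CO, against 60.97, 76.79 and 123.6 in OC and 93.21, 92.00 and 124.8 in CC. All 5 obesogenic-fed libraries lay above all 6 chow-fed ones, as for 251 of all 12086 genes (2.08%), and Fabp2 was the single gene of the 10 with no overlap. OO averaged 157.1 ± 28.81 and CO 164.6 ± 4.608, against 87.12 ± 32.57 in OC and 103.3 ± 18.59 in CC (SD, n = 3, 2, 3 and 3). Averaged over dams Fabp2 rose by 0.79 on the log2 scale (SE 0.17, 95% interval 0.41 to 1.16, adjusted p = 0.028 by limma).

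Neither dam group alone passed the test for Fabp2. The log2 difference was 0.89 in OO against OC (SE 0.23, adjusted p = 0.292 by limma) and 0.68 in CO against CC (SE 0.26, adjusted p = 0.208). The average stayed between 0.68 and 0.93 with each library left out in turn. Its call ended without CC.0 (0.76), CC.1 (0.75), CO.0 (0.80), CO.1 (0.77), OC.0 (0.68), OC.1 (0.76) or OO.0 (0.72), with adjusted p between 0.05001 and 0.0883. It was 0.66 with an adjusted p of 0.142 without OC.0 and CO.1, and 0.75 with an adjusted p of 0.126 without OC.1 and CO.1. Intestinal epithelium was looked for because Fabp2 marks enterocytes, and 2 of its 6 other markers were measured. One of them, Lgals4, ran from 12.22 to 23.5 in the 5 obesogenic-fed libraries and from 11.71 to 23.05 in the 6 chow-fed ones. The other, Apoa4, an apolipoprotein also made by liver, stood at 2496, 1066 and 1784 in OO and 923.4 and 3204 in CO, against 318.2, 466.1 and 983.7 in OC and 1540, 396.2 and 1414 in CC. Its log2 difference averaged over dams was 1.26 (SE 0.45, unadjusted p = 0.0169, adjusted p = 0.151 by limma), and its part in the Fabp2 result was not tested.

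Fabp1, the liver fatty acid binding protein, is among the most abundant proteins of the hepatocyte cytosol. Its value was 5560, 5896 and 4476 in OO and 4976 and 4941 in CO, against 2090, 2311 and 4570 in OC and 1610, 3704 and 2894 in CC. All 5 obesogenic-fed libraries lay above the chow-fed median of 2602, and 1 chow-fed library, OC.2, lay above the lowest of them. OO averaged 5311 ± 742.0 and CO 4959 ± 24.32, against 2991 ± 1372 in OC and 2736 ± 1056 in CC (SD, n = 3, 2, 3 and 3). The log2 difference averaged over dams was 0.93 (SE 0.26, 95% interval 0.35 to 1.499, adjusted p = 0.0729 by limma), which missed the threshold. It was 0.91 in OO against OC and 0.94 in CO against CC. The gene passed without OC.2 (1.10, adjusted p = 0.0337 by limma) and in DESeq2 on recovered reads (0.84, adjusted p = 0.00897).

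Fabp4, the adipocyte fatty acid binding protein, is also made by macrophages and capillary endothelium. Its value was 10.85, 13.27 and 11.76 in OO and 7.834 and 82.3 in CO, against 18.91, 8.516 and 8.808 in OC and 10.94, 7.293 and 5.252 in CC. The 82.3 of CO.1 stood apart from the other 10 libraries, which ran from 5.252 to 18.91, and the next highest value was that of OC.0. CO.1 and OC.0 are the 2 libraries with the most pancreas transcripts, while CC.1, the third in those transcripts, had the second lowest Fabp4 value. Their part in the result was not tested. Of the adipocyte markers 3 of 8 were measured, and Adipoq, Plin1, Lep, Retn and Adig were not analysed here. The adipsin gene Cfd stood at 0.277 to 13.89 in OO and 1.167 and 2.838 in CO, against 1.977 to 6.461 in OC and 0.829 to 1.427 in CC, with its highest value in OO.2. Its lowest value, in OO.1, was below the 0.8295 that 3 reads were worth there. Cidec, a lipid droplet gene that liver also makes, stood at 44.05, 13 and 44.77 in OO and 15.67 and 60.69 in CO, against 8.576, 4.41 and 29.51 in OC and 74.98, 7.48 and 73.8 in CC (log2 difference averaged over dams 0.64, adjusted p = 0.668 by limma). Pck1, a gluconeogenic gene of liver and adipose tissue, stood at 5878, 2834 and 1896 in OO and 3647 and 3598 in CO, against 5375, 3622 and 5245 in OC and 4018, 5563 and 4624 in CC (-0.47, adjusted p = 0.381). Averaged over dams the log2 difference of Fabp4 was 0.90 (SE 0.48, adjusted p = 0.337 by limma), and in CO against CC it was 1.71 (SE 0.71, adjusted p = 0.249). Without CO.1 these were 0.07 and 0.06, and without CO.0 they were 1.73 (adjusted p = 0.0081) and 3.37 (adjusted p = 0.00727), with CO then resting on the 1 library that stood apart.

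Neither of the 2 activation genes was called by limma in any of the 7 comparisons. Acsl1 encodes the main long-chain acyl-CoA synthetase of liver. Its value was 3591, 3076 and 3054 in OO and 4177 and 2073 in CO, against 2378, 2276 and 3551 in OC and 3468, 2848 and 4131 in CC. The 2 CO libraries were the highest and the lowest of all 11. The log2 difference averaged over dams was 0.02 (SE 0.21, 95% interval -0.45 to 0.49, adjusted p = 0.971 by limma), and its sign turned without CC.1 (-0.05), CO.0 (-0.23), OC.0 (-0.02), OC.1 (-0.04) or OO.0 (-0.02). Acsl5 encodes an isoform of mitochondria and endoplasmic reticulum. Its value was 461.1, 456.8 and 406.9 in OO and 429.4 and 392.7 in CO, against 312.5, 378.8 and 460.1 in OC and 358.6, 426.0 and 454.4 in CC. Its libraries were the closest together of the 10 genes, with a log2 difference of 0.11 and a 95% interval of -0.14 to 0.36 (adjusted p = 0.664 by limma).

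**Figure D3:**
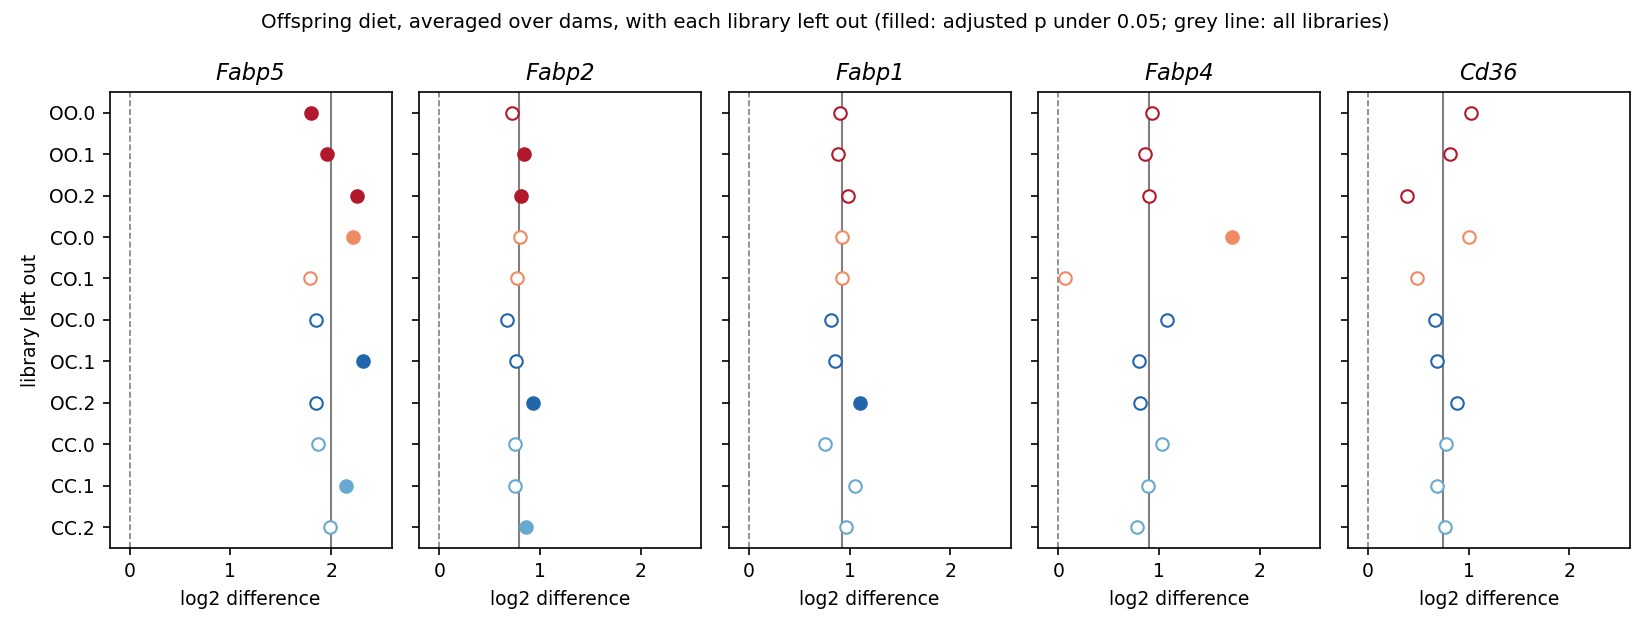
Log2 difference for the offspring's diet, averaged over dams, with each of the 11 libraries left out in turn (rows) for 5 of the genes, where a filled dot marks an adjusted p under 0.05 by limma and the grey line is the value with all libraries. Fabp2 stays between 0.68 and 0.93 and Fabp5 between 1.79 and 2.31, whereas Fabp4 moves to 0.07 without CO.1 and Cd36 to 0.39 without OO.2.

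The maternal diet was compared next, as the mean of OC minus CC and OO minus CO. None of the 10 genes passed the test in limma, edgeR, DESeq2 or limma voom, where limma called 0.0331% of all genes, and none had an unadjusted p under 0.05. The differences ran from -0.79 for Fabp5 (SE 0.41, adjusted p = 0.801 by limma) to 0.55 for Vldlr (SE 0.39, adjusted p = 0.836), with 4 of 10 above 0 and a median of -0.06. In OC against CC none of the 10 genes passed by any of these tools or at an unadjusted p under 0.05. Limma called 0% of all genes there (0 of 12086, with 636 at an unadjusted p under 0.05, and 0 by the other tools). There Acsl1 averaged 2735 ± 708.2 in OC and 3483 ± 641.7 in CC, a log2 difference of -0.36 (SE 0.28), and Fabp4 averaged 12.08 ± 5.921 in OC and 7.827 ± 2.88 in CC, a difference of 0.56 (SE 0.63).

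In OO against CO none of the 10 genes passed by any of these tools either, where limma called 0.0414% of all genes, and 2 of the 10 had an unadjusted p under 0.05, as did 5.92% of all genes. The log2 difference of Fabp5 was -1.61 (SE 0.62, 95% interval -2.96 to -0.26, adjusted p = 0.833 by limma). That of Vldlr was 1.33 (SE 0.58, 95% interval 0.06 to 2.599, adjusted p = 0.833 by limma). Fabp4 had a difference of -1.08 (adjusted p = 0.878 by limma), which was 0.58 without CO.1 and, with an adjusted p of 0.0488, -2.74 without CO.0.

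Whether the response to the offspring's own diet depended on the dam's diet was tested as an interaction, OO minus OC less CO minus CC. None of the 10 genes passed in limma, edgeR, DESeq2 or limma voom, where limma called 0.0331% of all genes, and none had an unadjusted p under 0.05. The furthest from 0 were Fabp5 at -1.65 (SE 0.83, 95% interval -3.45 to 0.16), Fabp4 at -1.64 (SE 0.95, -3.71 to 0.44) and Vldlr at 1.56 (SE 0.78, -0.15 to 3.26), each with an adjusted p of 0.936 by limma. Without CO.1 the Fabp4 value was 0.02. Each of these intervals includes 0.

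**Figure D4:**
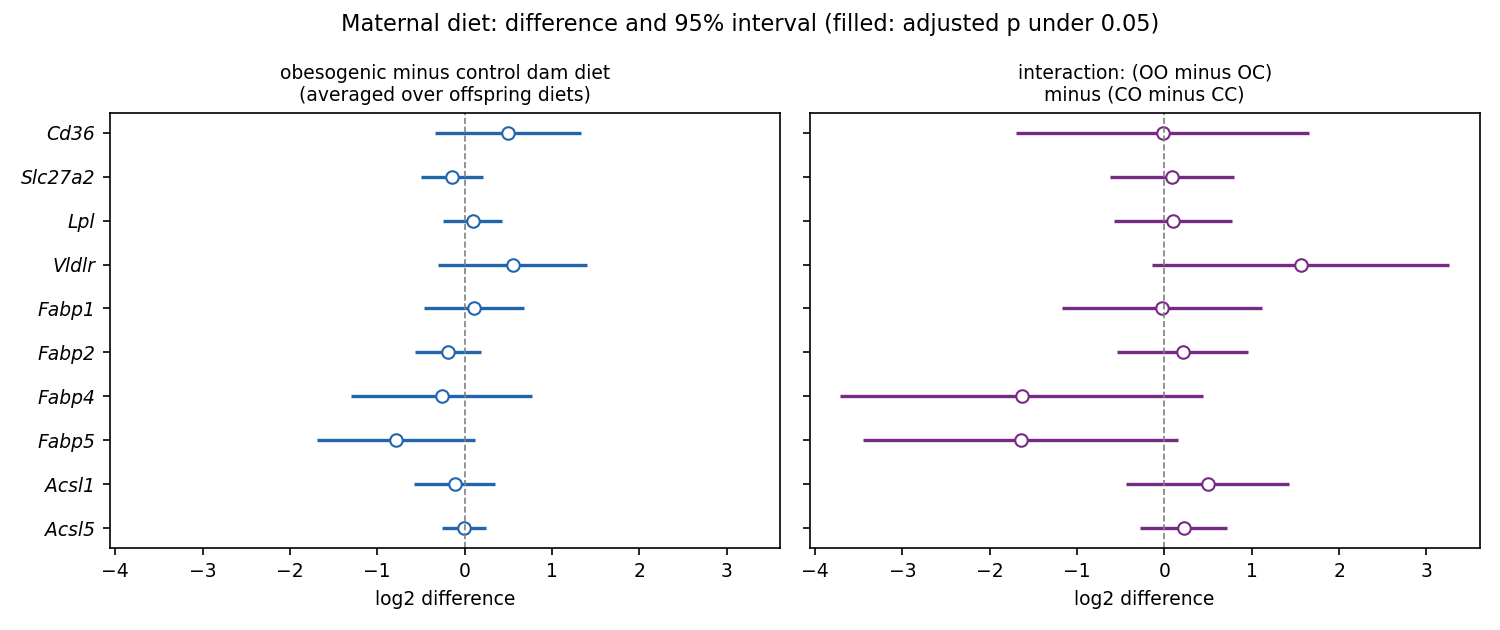
Log2 difference for the dam's diet averaged over offspring diets (left) and for the interaction of both diets (right), with 95% intervals from limma for the 10 genes. No dot is filled, and the widest intervals of the interaction are those of Fabp4, Fabp5 and Vldlr.

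Other genes of the same steps were read from 6 lists, of which 67 of 72 genes were measured. On the obesogenic diet, averaged over dams, 2 of the 67 rose and 3 fell by limma, where 3.96% of all genes were called. None of the 9 other uptake genes (median log2 difference 0.07), the 6 other binding proteins (0.01) or the 9 acyl-CoA thioesterases (-0.16), which undo the activation, passed the test, and 4 of 9, 0 of 6 and 2 of 9 had an unadjusted p under 0.05, as did 19.4% of all genes. Of the 9 other acyl-CoA synthetases, 3 had an unadjusted p under 0.05 and 1 fell past the threshold. This was Acsl3, an isoform of endoplasmic reticulum and lipid droplets, which averaged 15.69 ± 2.393 in OO and 10.76 ± 0.837 in CO, against 25.35 ± 5.558 in OC and 17.44 ± 4.468 in CC. Its log2 difference was -0.66 (SE 0.15, adjusted p = 0.036), and the median of that list was 0.07. The call ended, at -0.70 to -0.56, without CC.1, CC.2, CO.0, CO.1, OC.0, OC.1, OC.2 or OO.0.

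Of the 19 genes around lipoprotein lipase (its maturation factors, activators, inhibitors and related lipases), 1 fell, and the list's median was -0.11. Limma called 3.96% of all genes there, and 5 of the 19 had an unadjusted p under 0.05, as did 19.4% of all genes. Apoa5, an apolipoprotein that promotes lipolysis by lipoprotein lipase, averaged 1224 ± 87.75 in OO and 1312 ± 44.33 in CO, against 1632 ± 105.4 in OC and 1965 ± 123.8 in CC, with a log2 difference of -0.50 (SE 0.11, adjusted p = 0.028 by limma). It ran from 1141 to 1343 in the 5 obesogenic-fed libraries and from 1555 to 2101 in the 6 chow-fed ones. The call ended, at -0.52 to -0.47, without CC.0, CC.2, CO.0, CO.1, OC.2, OO.1 or OO.2.

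Of 15 transcription factors known to act on these genes, 2 rose and 1 fell, with a median of 0.13, where limma called 3.96% of all genes. An unadjusted p under 0.05 was found for 6 of the 15, as for 19.4% of all genes. Mlxipl, which encodes the carbohydrate response factor ChREBP, averaged 151.6 ± 27.41 in OO and 156.5 ± 16.59 in CO, against 124.7 ± 20.82 in OC and 86.86 ± 15.36 in CC. Its log2 difference was 0.57 (adjusted p = 0.033 by limma) on the average and 0.86 (adjusted p = 0.048) in CO against CC. Cebpb, a factor of the acute phase and of gluconeogenesis, rose by 0.52 (adjusted p = 0.0433), and Nr1i2, the pregnane X receptor, fell by 0.38 (adjusted p = 0.0297). Ppara itself had a difference of 0.39 with an adjusted p of 0.176. The call of Mlxipl in CO against CC ended without CC.0, CC.2, CO.0, CO.1, OC.0, OC.2 or OO.0 (0.75 to 0.96), in edgeR and in limma voom. Its average call ended without CC.0, CC.2, CO.0, CO.1, OC.0, OC.1, OO.0 or OO.1 (0.50 to 0.62), that of Cebpb without CC.1, CC.2, CO.0, CO.1, OC.0, OC.1 or OO.0 (0.44 to 0.54) and that of Nr1i2 without CC.0, CC.2, CO.0, CO.1, OC.2, OO.0 or OO.2 (-0.39 to -0.35).

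**Figure D5:**
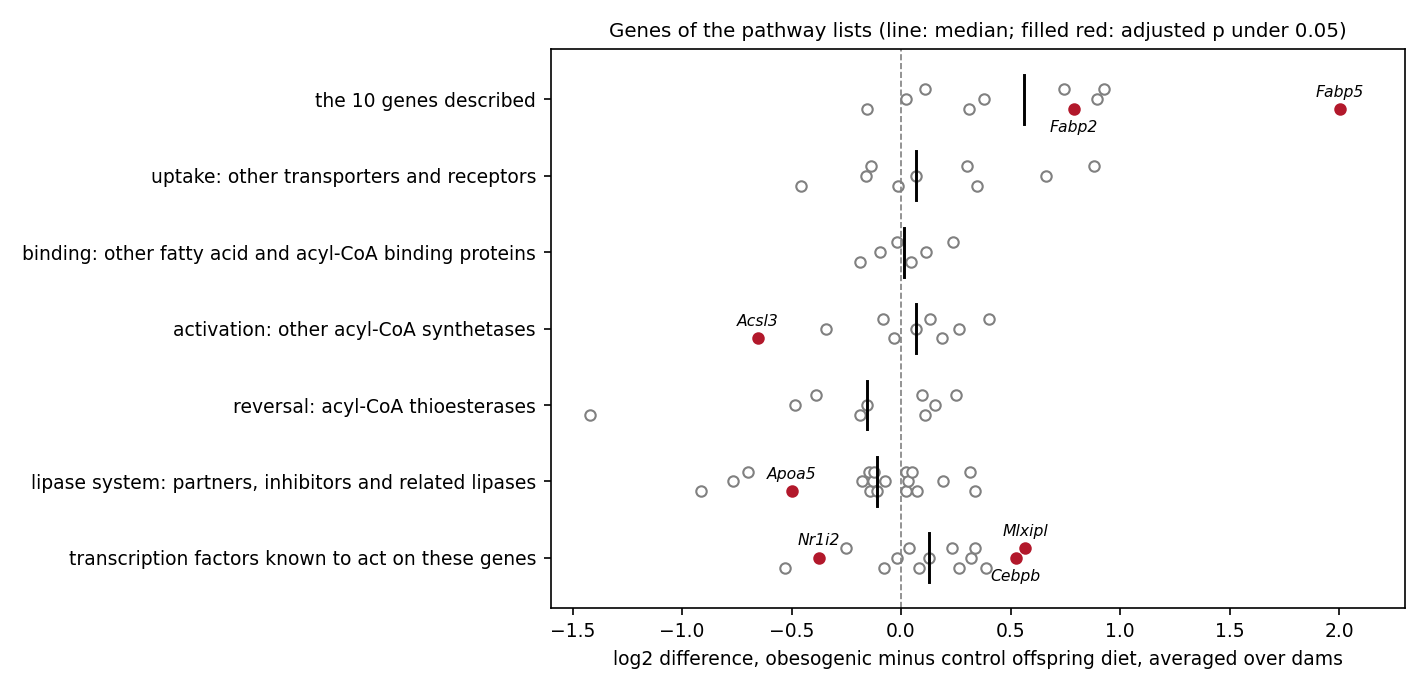
Log2 difference for the offspring's diet, averaged over dams, of the 10 genes (top row) and of the 67 measured genes of the 6 lists, 1 dot a gene, with the median of each row as a line and genes with an adjusted p under 0.05 by limma in filled red. The median is 0.56 for the 10 genes and between -0.16 and 0.13 for the 6 lists. Genes and lists were chosen with earlier results of these data known, so the medians are descriptions with no test.

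The genes most like Fabp2 and Fabp5 over the 11 libraries were found by the root mean square difference of log2 values centred on each gene's mean, among 9326 genes. Near to Fabp2 were Fads2, a fatty acid desaturase, at 0.176, and Atp9a, a phospholipid flippase, at 0.192, beside a median of 0.529 over all those genes. Fads2 ran from 377.1 to 512.3 in the obesogenic-fed libraries, against 206.8 to 420.1 in the chow-fed ones, with a log2 difference of 0.63. Nearest to Fabp5 were Slc37a1, a sugar phosphate transporter, at 0.479, Atp11a, a phospholipid flippase, at 0.584, and Zbp1, a sensor of nucleic acids, at 0.612, beside a median of 1.28. Slc37a1 ran from 4.700 to 24.01 in the obesogenic-fed libraries, against 1.268 to 3.954 in the chow-fed ones, with a log2 difference of 2.07. These genes were chosen for their likeness over the same 11 libraries, so their differences are descriptions with no test.

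RefSeq promoter windows on GRCm38.p6, 250 bases before to 50 after the start, were at hand for 7 of the 10 genes in 9 windows. They were searched on both strands for the direct repeat of AGGTCA with 1 base between the copies, 12 fixed letters in all, which PPAR alpha binds with its partner RXR. The closest match differed by 1 letter in Fabp1, starting 67 bases before the start, by 2 letters in Cd36 (63 before), and by 3 letters in Fabp2 (137 before), Slc27a2 (227 before) and Acsl5 (14 before). In the other genes, Acsl1 and Vldlr with 2 windows each, it differed by 4 letters in 1 window and 5 in the other. Of all 32851 windows, 0.554% held a match within 1 letter, 3.86% within 2, 24.6% within 3, 79.8% within 4 and 99.9% within 5. The windows of Fabp1 at chr6:71199629-71199928 (plus strand), Cd36 at chr5:17835847-17836146 (minus strand) and Fabp2 at chr3:122894822-122895121 (plus strand) are shown, the first 2 for the closest matches and the last for the call above, with the best match in capitals, which reads on the reverse strand in all 3. Each is written 5′ to 3′ along the gene.
Fabp1: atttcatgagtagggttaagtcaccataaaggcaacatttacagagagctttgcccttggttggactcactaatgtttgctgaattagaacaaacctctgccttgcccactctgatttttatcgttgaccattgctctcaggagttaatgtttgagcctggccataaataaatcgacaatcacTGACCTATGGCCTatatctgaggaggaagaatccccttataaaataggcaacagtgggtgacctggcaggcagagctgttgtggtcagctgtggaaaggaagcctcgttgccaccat
Cd36: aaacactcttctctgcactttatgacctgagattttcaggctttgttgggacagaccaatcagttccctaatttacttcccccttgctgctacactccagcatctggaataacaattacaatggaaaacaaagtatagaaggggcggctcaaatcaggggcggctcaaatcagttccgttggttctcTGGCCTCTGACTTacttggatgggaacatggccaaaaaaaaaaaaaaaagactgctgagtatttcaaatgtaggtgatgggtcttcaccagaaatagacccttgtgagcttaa
Fabp2: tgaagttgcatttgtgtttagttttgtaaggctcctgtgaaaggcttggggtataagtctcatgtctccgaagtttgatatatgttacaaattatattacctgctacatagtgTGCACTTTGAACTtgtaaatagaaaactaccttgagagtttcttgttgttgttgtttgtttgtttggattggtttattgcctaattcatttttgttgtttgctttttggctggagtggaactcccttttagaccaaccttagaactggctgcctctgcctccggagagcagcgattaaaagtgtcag
A match of letters is a description of the sequence and not a measured binding site, and these livers gave no binding data here.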

How the data were processed

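Total liver RNA, extracted with a miRNeasy kit, was made into TruSeq libraries, per the labels' protocols. The deposited values were treated as a signal: a count per gene that the authors scaled by library. In each library 95.73% to 97.35% of them came out as whole reads (tolerance 0.01) once divided by the worth of 1 read. The deposited table is named as CPM, although its libraries summed to between 929699 and 1099404. Bowtie 1.2.3 and the mm8 build were used, per the submitters' processing notes. No source used here names the read counter, the annotation, the strand setting or the scaling. The labels list 12 samples and the table has 11 columns, whose names give the group only.

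Levels were tested with limma 3.58.1 (R 4.3.3) on log2(value + 0.5) over all 11 libraries with 1 mean per group, for genes with a value of at least 1 in 3 libraries (all 12086), in 7 comparisons, with Benjamini-Hochberg adjustment over all genes. Residual df were 7 and prior df 4.66. Alternatives were edgeR 4.0.16 (quasi-likelihood), DESeq2 1.42.0 and limma voom on recovered reads, other pseudocounts, scalings and filters, and leaving out libraries, of which 2 pairs were chosen after seeing the data. Transcripts were compared with BLAST+ 2.17.0 (at least 90% identity over 300 bases, GENCODE M21). The named genes were all 10 genes, listed genes past the threshold, called markers, and the 3 genes nearest to each called gene, of which 1 is not reported here. Members and lists were chosen with earlier results of these data known. Intervals of values cover the spread between libraries, and read numbers cover counting error only.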

Additional observations from a re-analysis of the deposited data

How the results depend on the processing

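Of the 10 genes, 2 were called for the offspring's diet averaged over dams under edgeR, limma voom, both other pseudocounts (0.1 and 2), both other scalings (quantile, median-of-ratios), a minimum value of 5 and no filter, and 3, with Fabp1, under DESeq2 and at an adjusted p threshold of 0.10. With each library left out the count ran from 0 to 2. It was 0 without OC.0 and CO.1 and 1 without OC.1 and CO.1, fits chosen after seeing the data. In CO against CC the count of 1 became 0 under limma voom and without either of these pairs, and ran from 0 to 1 with each library left out. In OO against CO it ran from 0 to 1, with Fabp4 called without CO.0. The other 4 comparisons gave 0 under every alternative run. Of the genes' 35 differences given, the sign turned in 11 fits with a library left out: Acsl1 and Vldlr in the average, Vldlr in OO against OC, and Fabp4 in OO against CO and in the interaction. With each library left out, Acsl1 ran from -0.23 to 0.27 and Vldlr from -0.47 to 0.063 in the average, Vldlr from -0.0082 to 1.06 in OO against OC, and Fabp4 from -2.74 to 0.58 in OO against CO and from -3.29 to 0.020 in the interaction. It turned in 5 fits without a pair: Fabp4 was -0.028 in the average without OC.1 and CO.1, 0.58 in OO against CO without either pair and 0.38 in the interaction without OC.0 and CO.1, and Vldlr was -0.0082 in OO against OC without OC.1 and CO.1. The marker Cidec was -0.13 in the average without OC.1 and CO.1. The cause was not tested. Leaving out a library leaves fewer samples, and CO with 1 library is assumed to vary like the other groups. Over all genes the offspring average called 253 to 483 with a library left out and 134 to 916 otherwise, against 479, CO against CC 19 to 233 and 14 to 472, against 216, and OO against OC 8 to 30 and 12 to 106, against 20. No paired analysis was possible because the column names carry no label that ties libraries of different groups together. Depth limits Vldlr and, with its pseudogenes, Fabp5 most.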

Other observations

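Other cell type markers were compared for the offspring's diet averaged over dams by limma, which called 3.96% of all genes. An unadjusted p under 0.05 was found for 2 of 7 hepatocyte and 3 of 3 neutrophil markers, as for 19.4% of all genes. Among 7 measured hepatocyte markers 2 fell: Tat, an amino acid catabolic enzyme, averaged 649.4 ± 355.8 in OO and 599.2 ± 104.6 in CO, against 1184 ± 209.4 in OC and 1679 ± 349.5 in CC (log2 difference -1.23, adjusted p = 0.0149), and Cps1, the first enzyme of the urea cycle, differed by -1.06 (adjusted p = 0.0318). The Cps1 call ended without CC.0, CC.2, CO.1, OC.0, OO.1 or OO.2 (-1.06 to -0.85). Of 3 measured neutrophil markers S100a8 rose, with 1.948 ± 0.271 in OO and 5.892 ± 4.325 in CO, against 0.890 ± 0.384 in OC and 0.596 ± 0.339 in CC. Its log2 difference was 1.62 (adjusted p = 0.0128 by limma). The call ended without CO.1 (1.25), with CO then resting on 1 library. S100a8 was near the floor in chow-fed livers, at 0.276 in CC.2 and 0.561 in CC.1, where 3 reads were worth 0.415 and 0.561. None of the markers of adipocytes (3 measured), endothelium (9), skeletal muscle (7), exocrine pancreas (9), intestinal epithelium (2), cholangiocytes (3) or stellate cells (8) was called by limma, and 1 of intestinal epithelium, 2 of cholangiocytes, 3 of stellate cells and 0 of the others had an unadjusted p under 0.05, as did 19.4% of all genes. Without OC.0 and CO.1, a pair chosen after seeing the data, Mpeg1 (0.77) and Tat (-1.30) did not pass. Over the alternatives run for the average, Mpeg1 was called in 21 of 22 and Tat in 20 of 22. Cps1 was called in 14 of 22 and S100a8 in 18 of 21.

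The genes whose values lay nearest to those of Fabp5 and Fabp2 were chosen for that likeness over the same libraries, so their values are descriptions with no test. Atp11a ran from 26.82 to 90.37 in the obesogenic-fed libraries, against 6.182 to 19.31 in the chow-fed ones (log2 difference 1.91). Zbp1 ran from 12.17 to 21.61 in the obesogenic-fed libraries, against 2.219 to 6.539 in the chow-fed ones (log2 difference 1.87). Atp9a, near Fabp2, ran from 112.5 to 146.0 in the obesogenic-fed libraries, against 71.31 to 109.9 in the chow-fed ones (log2 difference 0.53).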
